A study of Homo sapiens with 4 samples.

Results

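The 10 genes described here make up the retinoic acid pathway as chosen by name: the receptor genes RARA, RARB, RARG and RXRA, the synthesis genes ALDH1A2 and ALDH1A3, and the genes CYP26A1, CYP26B1, CYP26C1 and DHRS3, whose products lower the level of retinoic acid or of its precursor. All 10 were found by symbol among 19821 protein-coding genes with chromosome positions. For each gene, the peaks of monoubiquitinated histone H2A (H2AK119ub) were taken from the gene span and 20 kb either side, in hg38. These windows held 35 of 34390 peaks in the knockdown list and 37 of 32791 peaks in the wild-type list. The windows of CYP26A1 and CYP26C1, which are neighbours on chromosome 10, overlap and hold the same peaks, so the 10 windows form 9 separate regions.

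The 2 groups compared were YTHDF1 knockdown cells, which are H1 human embryonic stem cells given a short hairpin RNA that targets YTHDF1, and wild-type H1 cells, which are labelled untreated. H1 is an established embryonic stem cell line, and all cells were grown in mTeSR1, a medium that keeps such cells undifferentiated. Each group had 1 H2AK119ub ChIP-seq library with a deposited peak list, and 1 input library that was not analysed here. With no replicate in either group, the spread between libraries is unknown, so the values below are set side by side without a test or p-value. Delivery of the hairpin and loss of YTHDF1 cannot be told apart in this design. Read counts are not part of the lists, which leaves the depth of both libraries unknown. A peak in one list alone can lie just under the calling threshold of the other. Peak lists carry no expression values, so neither the cell type nor the knockdown could be checked against marker genes.

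Retinoic acid is made from vitamin A: retinol is oxidised to retinaldehyde, and the ALDH1A enzymes oxidise retinaldehyde to retinoic acid. The acid binds the receptors RARA, RARB and RARG, which pair with an RXR partner on response elements in DNA, commonly direct repeats of a short unit related to AGGTCA. The CYP26 enzymes hydroxylate retinoic acid and so clear it, and DHRS3 reduces retinaldehyde back to retinol. Retinoic acid patterns the hindbrain, spinal cord and limbs, and it drives embryonic stem cells to differentiate in culture. H2AK119ub is placed by Polycomb repressive complex 1, which in stem cells lies mostly at CpG-rich promoters of developmental genes. YTHDF1 is a cytoplasmic reader of methylated adenosine in messenger RNA.

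The promoters that carry the results are shown first, as the 250 bases before a RefSeq transcription start (build GRCh38.p14, the same coordinates as hg38), 5′ to 3′ on the strand of the gene. RARB has 4 RefSeq starts and CYP26A1 has 2. These 2 genes were picked as those with the best known retinoic acid response element promoters. The RARB start at position 25428263 of chromosome 3, the third along the gene, and the CYP26A1 start at position 93073893 of chromosome 10, the second, are shown because each held a direct repeat with a gap of 5 bases, the classical form of a retinoic acid response element. Capitals mark that repeat, which lies 53 to 37 bases before the RARB start and 90 to 74 bases before the CYP26A1 start. In CYP26A1 it reads on the opposite strand, as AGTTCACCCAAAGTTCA.
RARB, the third start, chr3:25428013-25428262, plus strand: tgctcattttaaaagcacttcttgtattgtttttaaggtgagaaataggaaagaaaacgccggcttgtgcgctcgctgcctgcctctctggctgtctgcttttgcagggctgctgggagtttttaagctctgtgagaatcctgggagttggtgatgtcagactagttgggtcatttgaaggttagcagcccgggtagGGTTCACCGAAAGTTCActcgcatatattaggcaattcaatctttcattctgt
CYP26A1, the second start, chr10:93073643-93073892, plus strand: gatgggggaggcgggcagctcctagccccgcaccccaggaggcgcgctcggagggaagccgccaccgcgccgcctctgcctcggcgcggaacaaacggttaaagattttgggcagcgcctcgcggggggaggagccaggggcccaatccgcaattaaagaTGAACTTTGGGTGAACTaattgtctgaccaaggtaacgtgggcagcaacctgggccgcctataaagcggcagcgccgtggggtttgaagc

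The next 3 promoters are shown because they differ in CpG, with each CG in capitals. The first RARB start and the first ALDH1A2 start lay inside peaks of both lists. The second ALDH1A2 start lay 48.0 kb from the nearest peak in each list.
RARB, the first start, chr3:24829071-24829320, plus strand: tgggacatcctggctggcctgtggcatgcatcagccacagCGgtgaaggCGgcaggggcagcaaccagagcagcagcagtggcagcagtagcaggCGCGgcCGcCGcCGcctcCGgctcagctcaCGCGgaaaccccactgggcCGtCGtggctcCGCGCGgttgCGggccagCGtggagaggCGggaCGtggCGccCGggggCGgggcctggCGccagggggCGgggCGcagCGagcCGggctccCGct
ALDH1A2, the first start, chr15:58065712-58065961, minus strand: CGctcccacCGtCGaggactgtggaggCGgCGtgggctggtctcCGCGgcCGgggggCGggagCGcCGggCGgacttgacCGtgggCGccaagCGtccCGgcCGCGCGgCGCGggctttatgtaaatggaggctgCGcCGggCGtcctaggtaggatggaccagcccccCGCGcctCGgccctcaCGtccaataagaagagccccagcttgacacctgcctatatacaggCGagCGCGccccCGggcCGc
ALDH1A2, the second start, chr15:58014024-58014273, minus strand: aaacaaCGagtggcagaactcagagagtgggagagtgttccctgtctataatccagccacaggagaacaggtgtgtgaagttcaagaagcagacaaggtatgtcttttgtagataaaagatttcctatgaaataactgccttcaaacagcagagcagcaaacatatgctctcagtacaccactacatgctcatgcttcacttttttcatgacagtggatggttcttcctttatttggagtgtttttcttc

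All 10 genes carried H2AK119ub in both lists, and at all 10 a peak lay over the annotated 5′ end itself in both. At least 1 peak in the window was found for 79.8% of all protein-coding genes in the knockdown list and for 79.4% in the wild-type list, so its presence is common. A peak within 2 kb of the 5′ end was found for 66.8% of the genes of known strand in the knockdown list and for 66.3% in the wild-type list. RARB and ALDH1A2 had the smallest shares of the window inside peaks. The median share of the window inside peaks over the 10 genes was 42.6% in the knockdown, against 45.1% in the wild type. Over all protein-coding genes it was 8.77% in the knockdown, against 9.67% in the wild type.

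**Figure D1:**
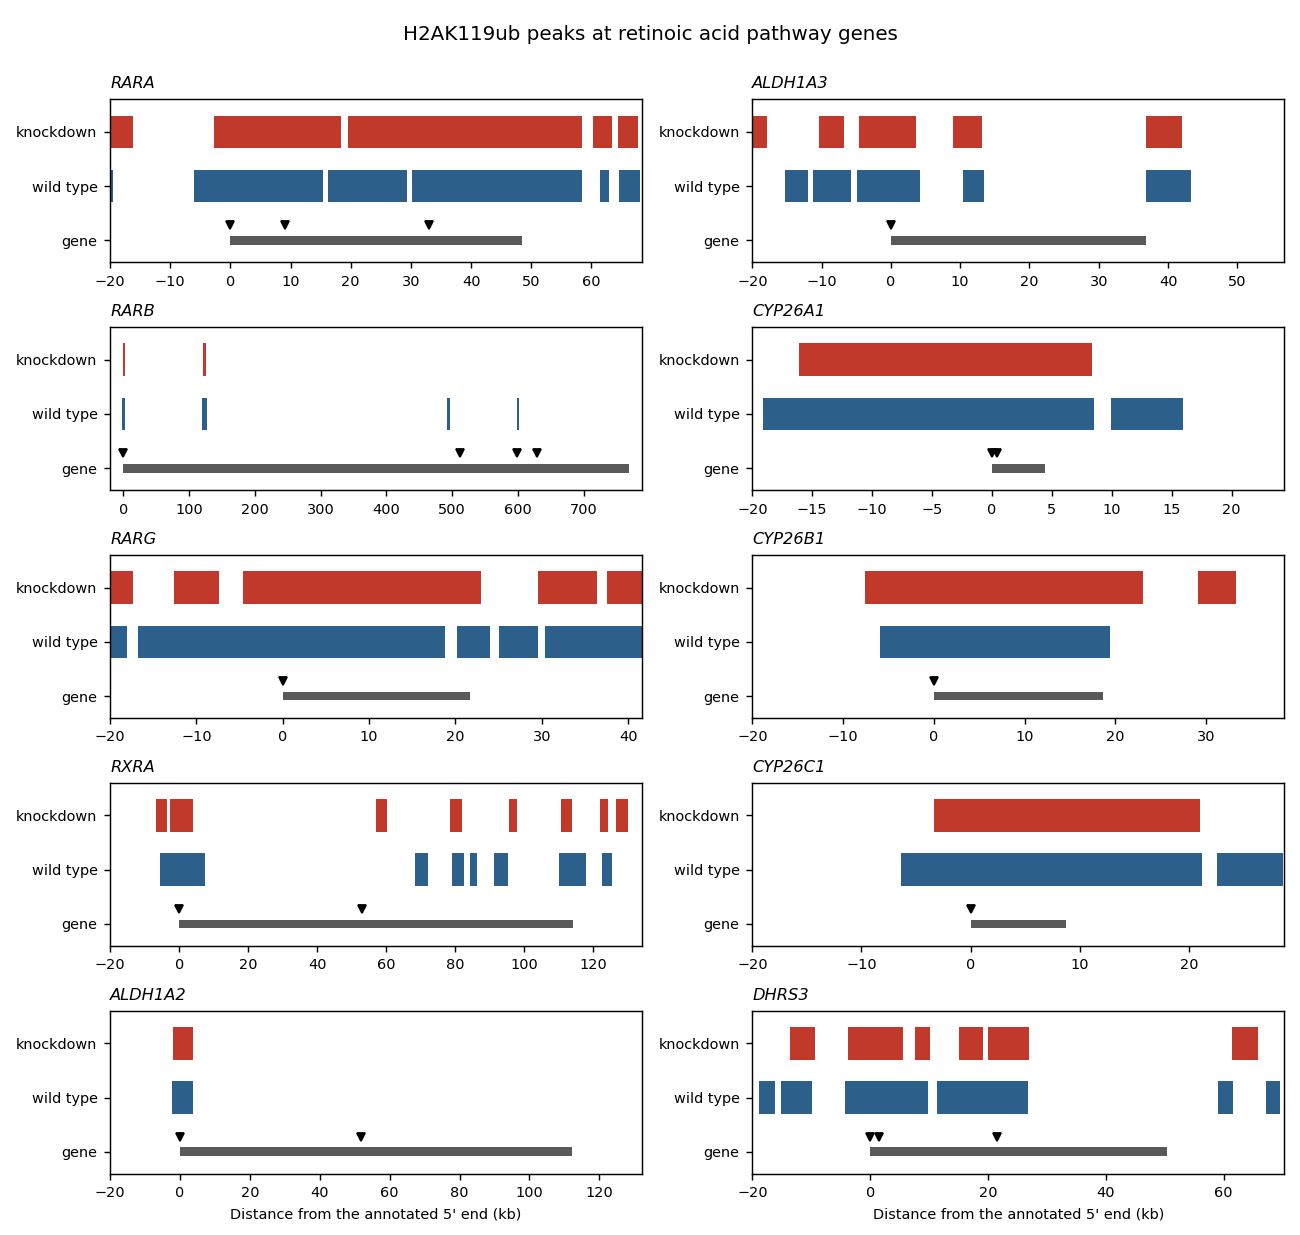
Peaks of the knockdown list (upper row, red) and of the wild-type list (middle row, blue) at each gene, against the distance from the annotated 5′ end in kb along the direction of transcription; the grey bar is the gene span, triangles are RefSeq starts, and panels have their own scale. A peak covers the 5′ end of all 10 genes in both lists, while RARB has 2 knockdown and 4 wild-type peaks.

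The length inside peaks was shorter in the knockdown for 8 of the 10 genes and longer for 2. Shorter lengths were found for 53.3% and longer lengths for 28.4% of all protein-coding genes. The 9 regions together held 273 kb inside peaks in the knockdown, against 318 kb in the wild type, a difference of -14.3%, close to the -13.7% of the whole lists (168 and 195 Mb). Past 1.5-fold, with at least 2 kb in a list, lay 1 gene, RARB, which was lower in the knockdown, and none was higher. Genome-wide, 20% of genes were lower and 10.4% higher by this rule. The median log2 ratio of knockdown over wild type was -0.35 over the 10 genes and -0.18 over the 15069 protein-coding genes with peaks in both lists, whose middle 50% ran from -0.53 to 0.13. CYP26A1 and CYP26C1 hold the same peaks and count as separate genes here. With CYP26C1 left out, 7 genes were shorter, 2 longer, and the median log2 ratio was -0.31. Within the gene spans alone, 3 genes were shorter and 3 longer and the median was 0. Of all 19821 protein-coding genes, 8217 were shorter and 5164 longer within the gene spans.

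**Figure D2:**
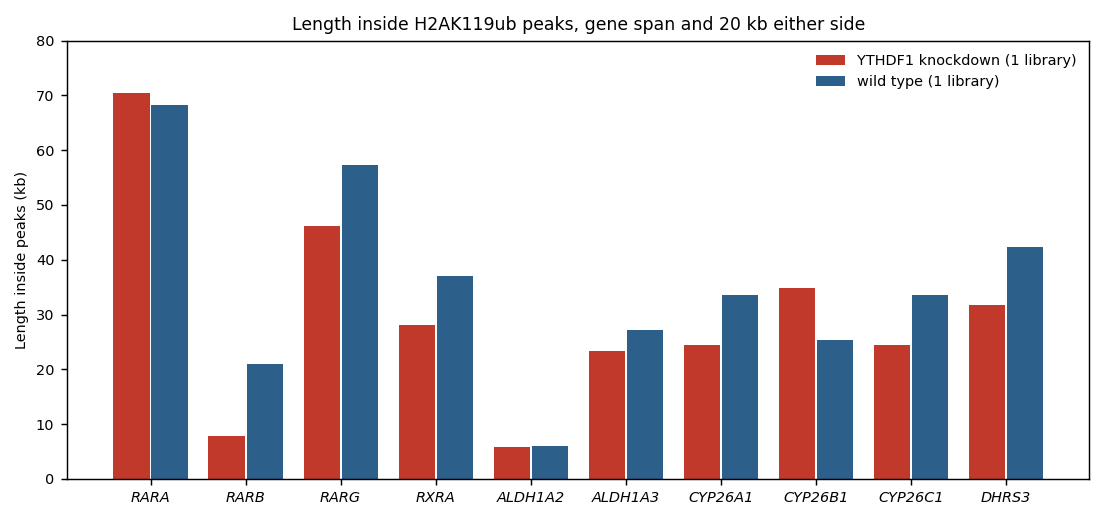
Length inside H2AK119ub peaks (kb) in the gene span and 20 kb either side, for the YTHDF1 knockdown (red, left) and the wild type (blue, right), 1 library each and therefore no error bars. RARA and RARG hold the longest lengths, RARB has 7.80 against 21.0 kb, and CYP26B1 is longer in the knockdown.

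Of the peaks in these windows, 30 of 35 knockdown peaks (85.7%) touched a wild-type peak, and 27 of 37 wild-type peaks (73.0%) touched a knockdown peak. In the whole lists these shares were 74.1% and 71.4%. The unshared peaks had a lower median score, the authors' own value per peak, which has no stated unit and is used here only within a list. The median score was 11.6 for the 5 unshared and 23.4 for the 30 shared knockdown peaks, and 7.77 for the 10 unshared and 36.1 for the 27 shared wild-type peaks. The highest unshared score was 28.2 in the knockdown, at RXRA, and 16.7 in the wild type. The same medians over the whole lists are not given. Within these windows the score ceiling of 1000 was reached by 4 peaks in each list, which lay at RARA, RARG, CYP26B1 and the CYP26A1 and CYP26C1 pair. In the whole lists, 98.1% of knockdown peaks and 97.0% of wild-type peaks scored below the ceiling.

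Among the receptors, RARA had the longest length inside peaks and RARB the shortest. RARA, the receptor fused to PML in acute promyelocytic leukaemia, had 70.4 kb inside peaks in the knockdown, against 68.2 kb in the wild type. This was 79.6% and 77.1% of its window. A shorter length was found for 99.3% and 98.6% of protein-coding genes, and a lower share of the window for 96.9% and 93.9%. The direction is not stable: within 10 kb of the gene RARA had 60 kb in the knockdown, against 62.8 kb in the wild type. All 3 RARA starts lay inside peaks of both lists. The first 2 shared a knockdown peak of 21.2 kb and a wild-type peak of 21.4 kb. The wild-type peak reached 5.98 kb upstream of the gene, into CDC6, a gene of DNA replication licensing, and the knockdown peak 2.78 kb. The third start lay in the peaks of score 1000, which measured 38.8 kb in the knockdown, against 28.2 kb in the wild type, and both ended at position 40367600, past the connexin gene GJD3. In the wild type a separate peak of 13.2 kb (score 27.0) filled most of the stretch that the wider knockdown peak also took in.

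RARB, itself a target of retinoic acid, had 2 peaks in the knockdown, against 4 in the wild type. The length inside peaks was 7.80 kb in the knockdown, against 21.0 kb in the wild type, in a window of 809 kb, a ratio of 0.371 (log2 ratio -1.43). Of the genes with peaks in both lists, 3.70% had a lower ratio. The peak over the first start measured 3 kb in the knockdown (chr3:24828201-24831200, score 45.9) and 5.60 kb in the wild type (chr3:24826601-24832200, score 32.6). Within their lists, 83.1% and 71.1% of peaks scored lower. A further peak within the gene lay 121 kb from the 5′ end and was 4.80 kb wide in the knockdown, against 120 kb from it and 7.80 kb wide in the wild type. Both pairs overlapped, with the knockdown peak inside the wild-type peak.

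The other wild-type peaks at RARB had no knockdown partner. They measured 4.40 kb (chr3:25321601-25326000, score 4.79) and 3.20 kb (chr3:25427001-25430200, score 4.90). The second covers the third start, the promoter with the direct repeat printed above. In the knockdown list the nearest peak to that start lay 235 kb away. The wild-type score is low for its list, in which 9.16% of peaks had a lower one. With the upper 50% of peaks by score in each list, neither peak remained, and RARB had 7.80 kb in the knockdown, against 13.4 kb in the wild type. Whether the promoter lost the mark or lay just under the threshold in the knockdown cannot be told from the lists. The second and the fourth start of RARB lay outside peaks of both lists.

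RARG had 46.2 kb inside peaks in the knockdown, against 57.2 kb in the wild type, or 75% and 92.9% of its window. The peak over the 5′ end was 27.6 kb wide in the knockdown (chr12:53209201-53236800) and 35.6 kb in the wild type (chr12:53213401-53249000), at the score ceiling in both. In the knockdown it reached 4.59 kb upstream of the start and 23 kb downstream, and so covered 100% of the gene. In the wild type it reached 16.8 kb upstream and 18.8 kb downstream. Together with a separate wild-type peak of 3.8 kb over the 3′ end, it covered 93.5% of the gene. Upstream, a separate knockdown peak of 5.2 kb (chr12:53239601-53244800) lay within the stretch of that wider wild-type peak. The shorter length in the knockdown therefore lay outside the gene, upstream of RARG and over ITGB7, an integrin subunit gene, where a wild-type peak of 4.60 kb had no partner. Inside the gene span the lengths were 21.6 kb in the knockdown, against 20.2 kb in the wild type.

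RXRA, the common partner of the RAR proteins and of other nuclear receptors, had 28 kb inside peaks in the knockdown, against 37.0 kb in the wild type. Its peaks coincided least of the 10 genes: 16.8 kb lay in both lists, 34.9% of the 48.2 kb that lay in either. The peak over the 5′ end measured 6.80 kb in the knockdown (score 80.9) and 13.2 kb in the wild type (score 155). Within their lists, 91.2% and 93.6% of peaks scored lower. A separate knockdown peak of 3.4 kb (score 21.0) lay next to it upstream and also touched that wild-type peak. This knockdown peak reached 6.85 kb upstream of the start, against 5.65 kb for the wild-type peak. Within the gene, 2 knockdown peaks (3.20 kb and 2.2 kb) and 3 wild-type peaks (3.60, 1.80 and 4 kb) had no partner. The second RXRA start, 52.8 kb into the gene, lay 4.31 kb from the nearest peak in the knockdown, against 15.5 kb in the wild type.

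Of the synthesis genes, ALDH1A2 had nearly equal lengths in both lists. ALDH1A2, the main retinoic acid synthase of the early embryo, had a single peak in each list, of 5.80 kb in the knockdown (chr15:58062001-58067800) and 6 kb in the wild type (chr15:58062001-58068000). Their scores were 38 in the knockdown, where 79.5% of peaks scored lower, and 115 in the wild type, where 91.1% did. The rest of its window of 152 kb held no peak, so 3.81% of it was covered in the knockdown, against 3.94% in the wild type.

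ALDH1A3, which makes retinoic acid in the developing eye and nose, had 23.4 kb inside peaks in the knockdown, against 27.2 kb in the wild type, in 5 peaks each. The promoter peak measured 8.20 kb in the knockdown, against 9 kb in the wild type. A peak at the 3′ end began at the same position (100916601) in both lists, measured 5.20 kb in the knockdown, against 6.60 kb in the wild type, and also touched the neighbouring gene LRRK1. The peak farthest upstream in each list had no partner. It scored 3.31 in the knockdown list, where 3.44% of peaks scored lower, and 3.07 in the wild-type list, where 2.57% did. Inside the gene span alone the order turned, with 7.80 kb in the knockdown, against 7.20 kb in the wild type.

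The CYP26 genes lay in domains at the score ceiling. CYP26A1 and CYP26C1 shared a domain of 24.4 kb in the knockdown (chr10:93057401-93081800) and 27.6 kb in the wild type (chr10:93054401-93082000). The domain covered 100% of both genes in both lists, so the gene spans could show no difference. Its edge toward EXOC6, a gene of the exocyst complex, lay 3.40 kb upstream of CYP26C1 in the knockdown, against 6.40 kb in the wild type, while the opposite edge differed by a single 200 bp step. A wild-type peak of 6 kb beyond CYP26A1 had no partner and a score of 5.21. With it, each gene had 24.4 kb inside peaks in the knockdown, against 33.6 kb in the wild type. With the upper 50% of peaks by score, which leaves that peak out, these were 24.4 and 27.6 kb. The second CYP26A1 promoter, with its direct repeat, lay well inside the domain in both lists, unlike the third RARB promoter.

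CYP26B1, which clears retinoic acid in the limb bud, the hindbrain and the fetal testis, was the member with the largest positive difference in length. It had 34.8 kb inside peaks in the knockdown, against 25.4 kb in the wild type, a ratio of 1.37 (log2 ratio 0.45), with no other protein-coding gene in its window. Of the genes with peaks in both lists, 87.4% had a lower ratio. The domain measured 30.6 kb in the knockdown (chr2:72124801-72155400) and 25.4 kb in the wild type (chr2:72128401-72153800) and was wider at both edges in the knockdown. It reached 7.54 kb upstream of the start in the knockdown, against 5.94 kb in the wild type. A knockdown peak of 4.2 kb, 29.1 kb from the start and past the end of the gene, had no partner and a score of 15.2. The gene itself was 100% covered in both lists, so the difference lay outside it. CYP26B1 thus had a longer domain and the CYP26A1 and CYP26C1 pair a shorter one in the knockdown, without a replicate for either.

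DHRS3, a gene that retinoic acid induces, had 31.8 kb inside peaks in the knockdown, against 42.4 kb in the wild type, in 6 peaks each. Around its first start, a peak of 9.40 kb in the knockdown, against 14 kb in the wild type, covered the first 2 starts. Farther into the gene, knockdown peaks of 2.6, 4.2 and 7 kb lay in the stretch that the wild-type peaks of 14 and 15.4 kb filled. The third start lay inside the 7 kb knockdown peak and the 15.4 kb wild-type peak. With peaks less than 3 kb apart joined, the lengths were 34.6 kb in the knockdown, against 45.0 kb in the wild type. Within the gene span they were 19.4 kb in the knockdown, against 25.2 kb in the wild type.

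**Figure D3:**
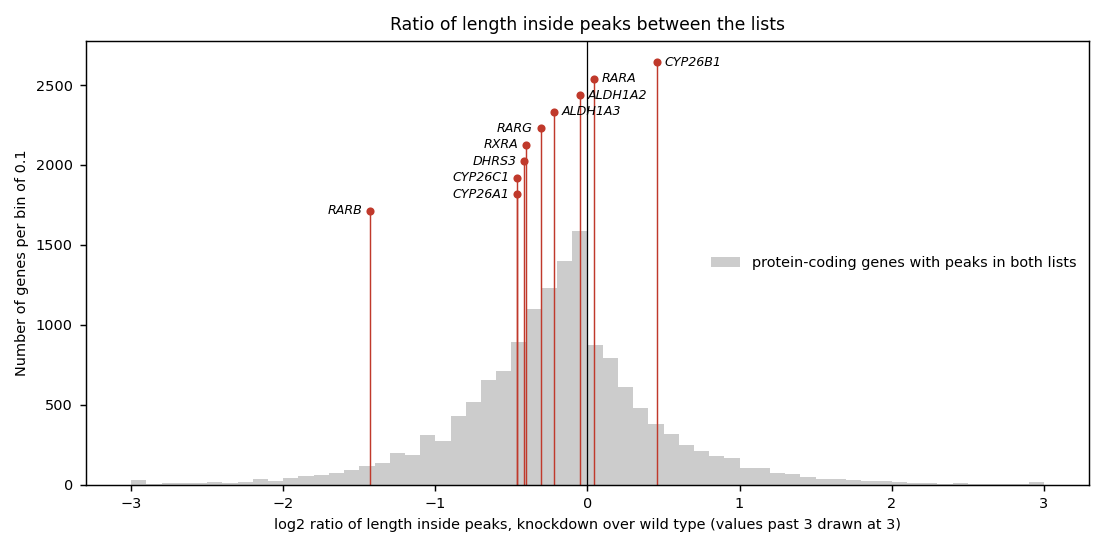
Number of protein-coding genes (grey) by the log2 ratio of length inside peaks, knockdown over wild type, among 15069 genes with peaks in both lists; red lines mark the 10 genes at heights chosen for legibility. RARB lies at -1.43, CYP26B1 at 0.45, and the other 8 between -0.46 and 0.05.

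The 20 RefSeq starts of the 10 genes were then compared by sequence. Over the 300 bases from 250 before to 50 after a start, the number of CpG ran from 1 to 65. The 15 starts inside peaks of both lists had a median of 22 CpG (5 to 65), and the 4 starts inside peaks of neither list a median of 1.5 (1 to 8). The third RARB start, in a wild-type peak alone, had 7. All 14 starts with 10 or more CpG lay inside peaks of both lists, and of the 6 with fewer, 1 knockdown and 2 wild-type starts lay inside a peak. Some of the 14 share a peak and are not separate cases. These are the first 2 of RARA, the first 2 of DHRS3, and those of CYP26A1 and CYP26C1. The limit of 10 was chosen after these values were seen.

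The same order was found among all 22132 starts of protein-coding genes, of which 62.0% lay inside a knockdown peak and 61.8% inside a wild-type peak. Of those with 10 or more CpG, 78.4% lay inside a knockdown peak and 77.1% inside a wild-type peak. Of those with fewer, 23.8% and 26.0% did. Peaks of both lists covered 10939 of the 15506 starts with 10 or more CpG and 1291 of the 6626 with fewer. Among starts with 5 to 9 CpG, the class of the third RARB start, 9.62% lay in a wild-type peak alone. In a knockdown peak alone lay 5.67% of them. All starts of RARA, RARG, ALDH1A3, DHRS3 and the CYP26 genes lay inside peaks of both lists, while RARB, RXRA and ALDH1A2 had starts outside.

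**Figure D4:**
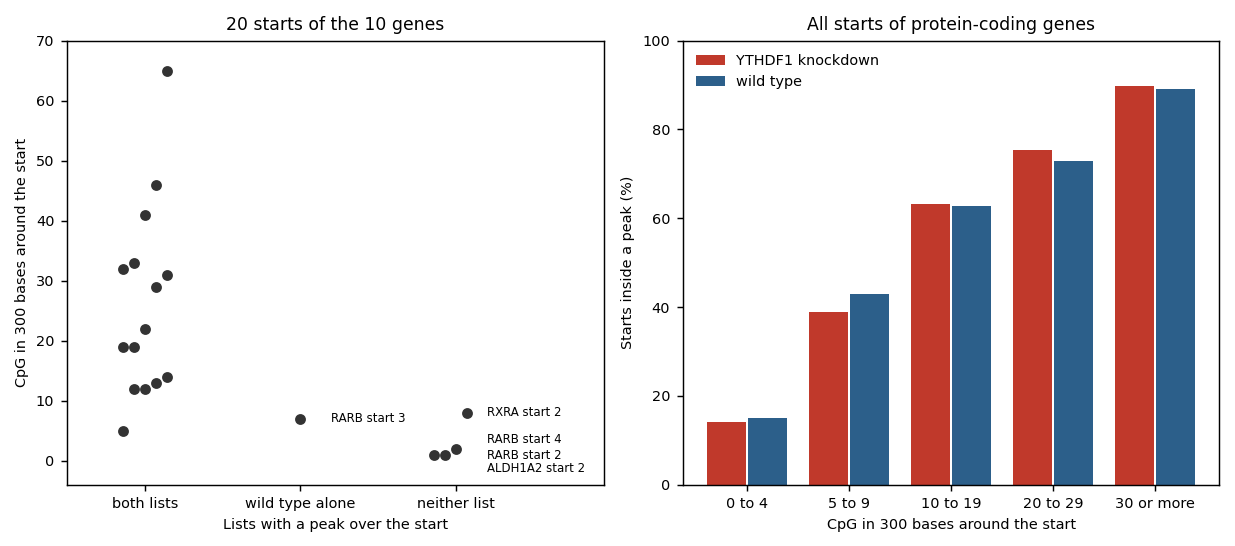
Left, CpG in 300 bases around each of the 20 starts of the 10 genes, by the lists with a peak over the start (points are starts, spread sideways for legibility). Right, share of all 22132 starts of protein-coding genes inside a peak (%), by CpG, for the knockdown (red, left) and the wild type (blue, right), which grows from 14% and 15.0% in the lowest class to 89.7% and 89.1% in the highest.

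Direct repeats of the unit AGGTCA, of the variant AGTTCA, of the variant GGGTCA or of the variant GGTTCA, in any pairing and on both strands, were searched in the same 300 bases. With a gap of 5 bases they were found at 2 of the 20 starts, those of RARB and CYP26A1 printed above, and at 17 of all 22132 starts (0.0768%). With gaps of 2 bases or 1 base none of the 20 starts had a match, against 0.0361% and 0.131% of all starts. The units searched include AGTTCA and GGTTCA, of which the RARB and CYP26A1 repeats consist, and both promoters were known to hold such elements. The 2 matches were therefore fixed beforehand, and their share cannot be read as an enrichment. A match is a description of the letters and shows no binding of a receptor.

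A further 18 genes of the pathway were set beside these 10. A peak lay in the window of 16 of them in the knockdown list, against 15 in the wild-type list, and ALDH1A1 and DHRS9, which encode further enzymes of retinoid metabolism, had none in either. Of all protein-coding genes, 79.8% had a peak in the window in the knockdown list and 79.4% in the wild-type list. The length was shorter in the knockdown for 9 of the 18, longer for 6 and equal for 3. Over all protein-coding genes, 53.3% were shorter and 28.4% longer. The median log2 ratio was -0.04 over the 15 with peaks in both, against -0.18 over all protein-coding genes with peaks in both.

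STRA6, a membrane receptor that takes up retinol, had 46.5 kb in the knockdown, against 63.5 kb in the wild type, and the coactivator gene NCOA3 10.4 and 13.6 kb. RXRB, an RXR receptor gene, had 40.0 kb in the knockdown, against 39.5 kb in the wild type. RDH11, a retinal reductase gene, had 12.4 kb in the knockdown, against none in the wild type. CRABP1, which encodes a cytoplasmic binding protein of retinoic acid, had 24.2 kb in the knockdown, against 16.2 kb in the wild type, and LRAT, whose enzyme stores retinol as esters, had 9.80 and 8.20 kb.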

How the data were processed

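The series held 4 libraries, 2 of chromatin immunoprecipitation sequencing for H2AK119ub, which were used, and 2 of input. Per the submitters' processing notes, the build was hg38 and the tools included SICER 1.1, MACS2 2.1.0, Picard, Bowtie2 2.2.5, Trimmomatic 0.35 and SAMtools 1.3.1, without role or order. The peak caller and the use of input are not named there. The deposited value per peak is the authors' score, which ran from 2.00 to a ceiling of 1000. Starts were multiples of 200 bp and ends lay 1 bp below one, so ends were read as inclusive.

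Only peaks of chromosomes 1 to 22 and X entered. Groups were taken from sample titles. Gene positions, strands and promoter sequences came from RefSeq tables of GRCh38.p14, and strand was known for 15813 protein-coding genes. Length inside peaks was summed over the gene span and 20 kb either side. Peaks were shared when at least 1 bp overlapped. Functions were tested on simulated peaks. Python 3.11.15, pandas 2.3.3 and numpy 2.4.6 were used. The 10 genes, the 18 further genes and the windows were chosen with earlier results of these data known. The 10 genes are all named. Of the 18, the 3 longest and the 3 lowest and 3 highest differences were chosen for naming, of which 1 gene is not reported here. Alternatives changed the window, score limit, list length, peak width, joining, overlap and fold.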

Additional observations from a re-analysis of the deposited data

How the results depend on the processing

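Of 98 values recomputed under 13 alternatives, 89 stayed within their limits, 9 moved and 0 reversed. The summed difference in length stayed negative under each, from -16.4% (10 kb windows) to -10.8% (RARB left out), as did the median log2 ratio except within gene spans, where it was 0. Summed over all protein-coding genes, under the alternatives that left no gene out, the difference ran from -15.9% (gene spans) to -13.2% (joined peaks). Genes with longer length in the knockdown numbered 1 instead of 2 in windows of 10 kb and 1 in windows of 50 kb, where RARA was shorter. Of all 19821 protein-coding genes, 5600 were longer and 9995 shorter in windows of 10 kb. In windows of 50 kb, 5728 were longer and 11365 shorter. Within gene spans 3 instead of 8 genes were shorter (RARG and ALDH1A3 were longer there, and ALDH1A2, CYP26A1 and CYP26C1 equal), and 2 instead of 1 were past 1.5-fold (RARB and RXRA). In the upper 50% of peaks by score 2 were (RARB and DHRS3), and 90.0% of wild-type peaks were shared. With RARB left out (like leaving out CYP26C1, an alternative chosen after seeing the data), 0 genes were past 1.5-fold. When 50% of both peaks had to overlap, 57.1% of knockdown and 54.1% of wild-type peaks were shared. For these alternatives the shares over all peaks, and over all genes past 1.5-fold, are not given. The moved values therefore cannot be read as particular to these genes. Unknown depth and the missing replicate limit every comparison. No paired analysis was possible because each group had 1 H2AK119ub library and the labels carry no replicate numbers.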

Other observations

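The 17 starts with a direct repeat with a gap of 5 bases belonged to 16 protein-coding genes. Of these starts, 9 lay inside a knockdown peak (52.9%) and 10 inside a wild-type peak (58.8%), 8 of them in both, near the shares of all starts. They had a median of 18 CpG, against 21 for all starts. Besides the third RARB start, 1 other lay inside a wild-type peak alone, that of BATF2, and 1 inside a knockdown peak alone, that of ATXN1L. Of all 15506 starts with 10 or more CpG, 1017 lay in a wild-type peak alone and 1211 in a knockdown peak alone. Of the 6626 with fewer, 432 and 287 did. BATF2 and ATXN1L were named after their values were seen.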
